A study of Mus musculus with 12 samples.

Results

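Blood cells carry their own versions of many proteins that shape the actin skeleton and set the strength of receptor signals. The 10 genes described here encode 9 of these proteins and 1 lysosomal protein: Coro1a, Lcp1, Was, Dock2, Vav1, Arhgdib, Laptm5, Ptpn6, Inpp5d and Nckap1l. They were named as a list, with no measured value in the rule, and are 10 of the 25128 genes and unnamed targets on the array. All 10 were measured, each by 3 probes, and none was removed by a filter. Laptm5 is neither a cytoskeletal gene nor a phosphatase gene, so a label of hematopoietic cytoskeleton and phosphatase genes fits 9 of the 10.

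Transcripts were measured in 3 untreated mouse cell lines with 4 separately cultured and extracted 10 cm plates each, 12 single-color arrays in all. BV2 is a microglial line, microglia being the resident macrophages of the brain, and it was kept under conditions that favor the resting state. N18 is a neuroblastoma line and AtT20 is a neuroendocrine line from a pituitary tumor. All were grown to confluence in DMEM with 10% serum, and each is a single immortalized line, so differences between lines are differences between these 3 lines and not between tissues. The study asked which signaling genes such lines express of their own.

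In motile blood cells, a receptor signal reaches actin through a short relay. Guanine nucleotide exchange factors such as Vav1 and Dock2 load small GTPases such as Rac with GTP, Arhgdib holds those GTPases in the cytosol, and the loaded GTPases switch on WASP (Was) and the WAVE complex, of which Nckap1l is a subunit. Both activate the Arp2/3 complex, which grows branched filaments that coronin 1A (Coro1a) helps to remodel and L-plastin (Lcp1) bundles. The tyrosine phosphatase SHP-1 (Ptpn6) and the inositol phosphatase SHIP1 (Inpp5d) damp the receptor signal, and Laptm5 sorts receptors towards lysosomes. In microglia the same machinery drives process movement and engulfment.

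A level is given throughout as the log2 intensity of a gene on a plate, from the mean of its probes without normalization, minus that plate's average over 10 seminal vesicle proteins. A gene is called above the threshold of a line when its mean level exceeds 2 SD of those seminal proteins: 0.56 in BV2, 0.74 in N18 and 0.37 in AtT20 (log2, averaged over 4 plates). A single plate is judged against 2 SD of its own seminal proteins. A difference between lines comes instead from quantile normalized log2 intensities, tested with limma and Benjamini-Hochberg adjustment over all 25128 genes and targets, with calls at an adjusted p below 0.05. Levels are compared between lines for 1 gene at a time and never between genes, whose probes bind with unequal strength.

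Microglial and macrophage markers stood above the threshold in BV2 for 8 of the 11 measured, with a summed level of 27.3 to 33.4 over the plates, against 2.56 to 3.59 in N18 and −0.14 to 1.18 in AtT20. Aif1, Cx3cr1 and P2ry12 were not above the threshold in BV2. Of the 10 neuroblast markers, 9 were above the threshold in N18, 4 in BV2 and 4 in AtT20. Their summed levels were 26.0 to 29.5 in N18, 3.2 to 4.8 in BV2 and 1.9 to 6.8 in AtT20. Among 6 corticotroph markers 1 passed the threshold in AtT20, 2 in BV2 and 3 in N18, with summed levels of 0.38 to 1.22, 1.56 to 1.69 and 4.8 to 5.54, and the level of Pomc, the hormone precursor of that cell type, was 0.29 ± 0.26 (SD, n = 4) on the AtT20 plates. Of other blood cells, 3 of 6 lymphocyte markers and 2 of 4 erythroid and megakaryocyte markers passed in each of the 3 lines. The summed levels of the lymphocyte markers were 6.12 to 7.80 in BV2, 7.26 to 8.44 in N18 and 3.89 to 6.31 in AtT20, and those of the erythroid and megakaryocyte markers 3.58 to 4.63, 2.67 to 3.18 and 1.24 to 2.70. Genes that most cells use, such as Rac1 (−0.23 ± 0.04), were below the threshold in AtT20, and the AtT20 arrays had a narrow spread of intensities (interquartile range 0.38 to 0.78 on the log2 scale, against 1.28 to 1.73 in BV2 and 1.91 to 2.21 in N18). Their part in the comparisons with AtT20 was not tested. In RNA from whole plates, fewer expressing cells and less transcript per cell cannot be told apart.

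All 10 genes were above the threshold in BV2, beside 53.3% of all genes and targets. In N18 3 were above it, beside 55.4% of all: Coro1a, Ptpn6 and Nckap1l. In AtT20 4 were above it, beside 35% of all: Dock2, Arhgdib, Ptpn6 and Nckap1l. Ptpn6 and Nckap1l thus passed in all 3 lines by this rule. The AtT20 count moved with the rule: there were 0 when olfactory receptors set the threshold, 2 at 3 SD, 1 when all 4 plates had to pass and 2 with the median of the probes, and olfactory controls left 1 in N18. The 10 BV2 calls stood under each of these. Mean levels ran from 1.27 to 5.74 in BV2, from −0.40 to 1.46 in N18 and from −0.11 to 0.71 in AtT20. For each of the 10 genes, every BV2 plate had a higher level than every N18 plate, which held for 12.7% of all genes and targets. Each BV2 plate was also above every AtT20 plate, which held for 45.2% of all. After quantile normalization the separation from AtT20 held for 10 members, beside 22.9% of all. On unnormalized values it held for 8, beside 9.09% of all. The separation from N18 held for 10 members under both, beside 31.9% and 8.17%.

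**Figure D1:**
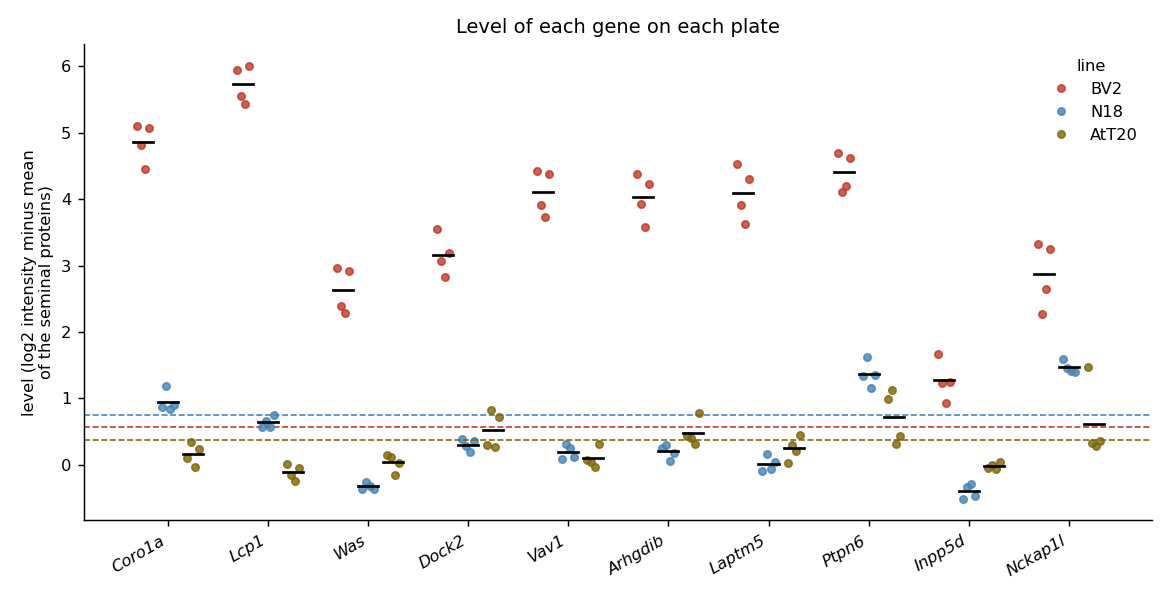
Level of each of the 10 genes (y axis, log2 relative to seminal proteins) on each of the 4 plates of BV2 (red), N18 (blue) and AtT20 (brown), where black bars are means and dashed lines are the thresholds of the lines in matching colors. The BV2 plates of a gene lie above all plates of the other lines, and Nckap1l on 1 AtT20 plate reaches 1.48.

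The 10 genes were all called higher in BV2 than in N18, where 21.9% of all genes and targets were called higher and 19% lower. Their median difference was 3.66 on the log2 scale, against 0.06 over all genes and targets. Against AtT20 they were again all called higher in BV2, beside 26.6% of all called higher and 47% lower, with a median difference of 2.55 against −0.23. Both comparisons use the same 4 BV2 plates and so are not independent. The plates are described as biological replicates, 4 per line, and their number limits the precision. The arrays hold 4 samples each, and which samples shared one is not given in the sources used here, so a slide and a line cannot be told apart. Adjusted p ran from 2.35e-14 to 3.15e-06 against N18 and from 1.16e-14 to 4.1e-05 against AtT20 (limma). The 3 lines share one estimate of the spread in this test, although their spreads differed. The median SD of the 10 genes after quantile normalization was 0.32 in AtT20, 0.18 in BV2 and 0.07 in N18. An SE therefore does not show the spread of the compared lines alone.

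The actin-binding proteins differed most after quantile normalization. By level and on unnormalized values Lcp1 stayed first, but the Coro1a difference from N18 was below those of Laptm5 and Vav1. Lcp1, which lies at chr14:75131105-75230842 (GRCm38.p6), encodes L-plastin, the plastin of blood cells that ties filaments into bundles. Its level on the BV2 plates was 5.95, 5.55, 5.43 and 6.01. On the N18 plates it was 0.56, 0.66, 0.57 and 0.75, and for AtT20 it was 0.02, −0.15, −0.24 and −0.05. Both other lines were below their thresholds on average, with 1 N18 plate just above. The quantile normalized difference was 5.25 ± 0.13 (SE) against N18, with an adjusted p of 2.35e-14 in limma, and 5.51 ± 0.13 against AtT20. Since the dimmer lines give only a bound, Lcp1 was at least 31.8-fold higher in BV2 than in N18 and at least 16-fold higher than in AtT20. Each such bound sets the BV2 mean against the threshold, or the plate's own value where that is higher, and is the smallest over quantile normalized, seminal-protein-scaled and unnormalized values.

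Coro1a (chr7:126699774-126704816) encodes coronin 1A, which binds filaments and the Arp2/3 complex. Its level was 5.11, 4.81, 4.46 and 5.07 on the BV2 plates, 0.87, 1.19, 0.83 and 0.89 on those of N18, and 0.11, 0.34, −0.03 and 0.23 on those of AtT20. The 4 BV2 plates lay far above the others, and N18 was above its threshold on average, on 3 of its 4 plates. That N18 call stood under 8 of 12 alternatives for the threshold. BV2 exceeded N18 by 4.23 ± 0.13 (SE), an 18.7-fold difference with an adjusted p of 2.29e-13 in limma. That fold is after quantile normalization, and the bound over the 3 scalings was at least 15-fold. The difference from AtT20 was 4.09 ± 0.13, which bounds the fold at 8.7 or more.

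Was and Nckap1l act in the making of branched actin. Was (chrX:8081466-8090491) encodes WASP, named for the immunodeficiency Wiskott-Aldrich syndrome. It was measured at levels of 2.96, 2.40, 2.28 and 2.92 on the BV2 plates, at −0.37 to −0.27 on those of N18 and at −0.16 to 0.15 on those of AtT20. No N18 or AtT20 plate passed the threshold. The quantile normalized differences were 2.71 ± 0.14 (SE) against N18 and 1.99 ± 0.14 against AtT20, with adjusted p of 7.93e-11 and 1.45e-09 (limma), and the bounds were at least 3.7-fold and at least 1.8-fold.

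Nckap1l (chr15:103453783-103502860) encodes HEM1, the blood-cell form of a core WAVE complex subunit. Of the 10 genes it had the widest spread over plates in BV2 and in AtT20. Its level was 3.33, 2.27, 2.65 and 3.25 on the BV2 plates, 1.59, 1.45, 1.42 and 1.40 on those of N18, and 1.48, 0.33, 0.28 and 0.35 on those of AtT20. N18 was above its threshold on all 4 plates, so signal on the Nckap1l probes was not confined to BV2. Whether those probes also bind transcripts of the relative gene Nckap1 was not tested, as probe sequences were not available here. AtT20 was above its threshold through plate 1: without that plate the mean level was 0.32, below it. The difference was 1.74 ± 0.21 (SE) against N18, or 3.35-fold after quantile normalization, with an adjusted p of 3.15e-06 (limma). The bound against N18 over the 3 scalings was at least 2.6-fold. Against AtT20 the difference was 1.25 ± 0.21, with an adjusted p of 4.1e-05. That value ran from 0.90 to 2.26 over the 3 scalings, and the bound was at least 1.8-fold.

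Regulators of small GTPases form the next group. Vav1 (chr17:57279100-57329236) encodes an exchange factor that tyrosine kinases switch on. Its level on the BV2 plates was 4.42, 3.91, 3.74 and 4.38, while the N18 plates lay between 0.08 and 0.31 and the AtT20 plates between −0.04 and 0.31. Those 8 plates were all below their thresholds. Vav1 was higher in BV2 by 3.92 ± 0.14 (SE) than in N18 and by 3.43 ± 0.14 than in AtT20, with adjusted p of 1.41e-12 and 3.95e-12 (limma). The bounds were at least 10.3-fold and at least 5.2-fold.

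Dock2 (chr11:34226815-34783905) encodes an exchange factor for Rac that leukocytes use in migration. It reached levels of 3.55, 3.07, 2.82 and 3.20 on the BV2 plates. The N18 plates were at 0.38, 0.28, 0.20 and 0.35, and the AtT20 plates at 0.29, 0.83, 0.26 and 0.71, above the threshold on 3 of 4. The AtT20 mean of 0.52 came from 1 probe, at 1.21 ± 0.55 (SD), with the other two at −0.18 and 0.05. Against N18 the difference was 2.79 ± 0.13 (SE; adjusted p = 5.26e-11, limma), with a bound of at least 5.3-fold, and against AtT20 it was 1.57 ± 0.13 (adjusted p = 2.57e-08), a value that ran from 1.27 to 2.64 over the 3 scalings.

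Arhgdib (chr6:136923655-136941899) encodes a GTPase dissociation inhibitor found mainly in blood cells. Levels were 4.38, 3.93, 3.58 and 4.23 on the BV2 plates, 0.26, 0.30, 0.06 and 0.18 on those of N18 and 0.43, 0.41, 0.31 and 0.77 on those of AtT20. AtT20 was a little above its threshold on 3 plates and N18 below on all. BV2 exceeded N18 by 3.85 ± 0.15 (SE), at least 9.7-fold, with an adjusted p of 2.3e-12 (limma). It exceeded AtT20 by 2.48 ± 0.15, a value that ran from 2.19 to 3.55 over the 3 scalings.

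Of the phosphatases, Ptpn6 (chr6:124720707-124738709) encodes SHP-1, which binds inhibitory receptors through its SH2 domains. Its level was 4.69, 4.11, 4.20 and 4.62 on the BV2 plates, 1.34, 1.63, 1.15 and 1.35 on those of N18 and 0.98, 1.12, 0.31 and 0.43 on those of AtT20. Every plate of every line was above its own threshold, and still no BV2 plate overlapped the others. BV2 was 3.47 ± 0.15 (SE) above N18, or 11.1-fold after quantile normalization, with an adjusted p of 1.39e-11 (limma). The bound against N18 over the 3 scalings was at least 8.1-fold. BV2 was 2.61 ± 0.15 above AtT20, a value that ran from 2.33 to 3.69 over the 3 scalings.

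Inpp5d (chr1:87620312-87720510) encodes SHIP1, which removes a phosphate from the lipid product of PI 3-kinase. Its differences were the smallest of the 10 after quantile normalization, while on the other scalings Nckap1l had the smallest difference from N18. Levels were 1.67, 1.23, 0.93 and 1.25 on the BV2 plates, −0.51, −0.33, −0.29 and −0.48 on those of N18 and −0.06, −0.01, −0.06 and 0.05 on those of AtT20. All BV2 plates were above the threshold and all others below. The difference from N18 was 1.48 ± 0.11 (SE; adjusted p = 1.24e-08, limma), with a bound of at least 1.4-fold. From AtT20 it was 0.89 ± 0.11 (adjusted p = 1.82e-06), too small against the threshold there to give a bound, and without normalization it was −0.07 and not called.

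Laptm5 (chr4:130912890-130936148) encodes a lysosomal membrane protein that lowers the amount of antigen receptors on lymphocytes. It was at 4.53, 3.91, 3.63 and 4.30 on the BV2 plates, between −0.10 and 0.17 on those of N18 and between 0.03 and 0.45 on those of AtT20. On average both lines were below their thresholds, although 2 AtT20 plates passed their own. BV2 exceeded N18 by 3.99 ± 0.17 (SE; adjusted p = 1.49e-11, limma), at least 10.1-fold, and AtT20 by 3.03 ± 0.17 (adjusted p = 1.85e-10), at least 5.1-fold.

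Which BV2 plate was highest depended on the scaling: plate 1 for 9 of the 10 genes by level, where all genes of a plate share 1 subtracted value, and plate 2 for 7 of the 10 after quantile normalization. The SD over the BV2 plates ran from 0.29 to 0.50, and its median over the 10 genes was 0.32 for levels and 0.18 after quantile normalization. These BV2 SDs were smaller than each gene's mean level differences from the other lines. Not all gaps between plates were wide beside the plate-to-plate shifts, however. Nckap1l ran from 2.27 to 3.33 over the BV2 plates, with its highest N18 plate at 1.59. Inpp5d ran from 0.93 to 1.67 in BV2, with its highest AtT20 plate at 0.05.

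Taken 1 probe at a time, 29 of the 30 probes were called higher in BV2 than in N18, beside 13.2% of all 72000 probes, and all 30 had a higher mean in BV2. Against AtT20 28 of the 30 were called higher, beside 27.7% of all probes. The probe missed in both was the third of Nckap1l, with differences of 0.53 ± 0.40 (SE; adjusted p = 0.380, limma) from N18 and −0.57 ± 0.40 (adjusted p = 0.223) from AtT20. Its level on the AtT20 plates was 0.84 ± 1.18 (SD, n = 4). The other two Nckap1l probes were higher in BV2 by 2.11 and 1.83 than in N18 and by 1.87 and 2.27 than in AtT20. The third Inpp5d probe, below the threshold in BV2 at 0.42 ± 0.31 (SD), was also missed against AtT20, at 0.37 ± 0.16 (SE; adjusted p = 0.0541). No probe reached the scanner limit of 16 on the log2 scale on any BV2 array.

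**Figure D2:**
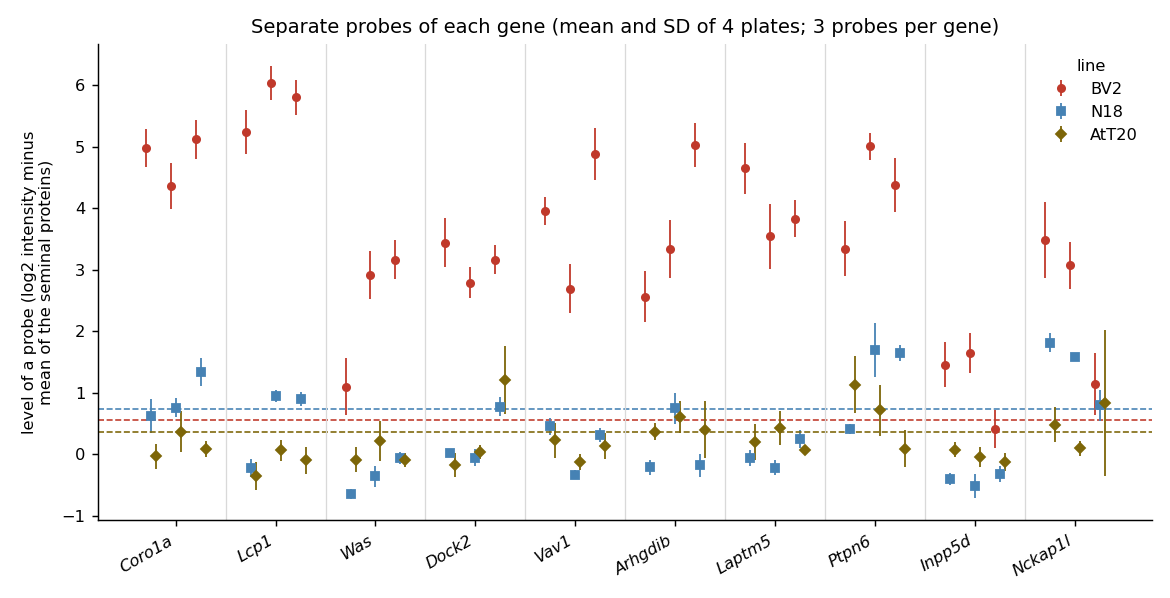
Level of each of the 30 probes (y axis, log2 intensity minus the mean of the seminal proteins), as mean and SD of 4 plates, for BV2 (red circles), N18 (blue squares) and AtT20 (brown diamonds), with the 3 probes of a gene side by side and dashed lines at the thresholds. The third Nckap1l probe is the one where the BV2 bar overlaps those of both other lines, and the third Inpp5d probe is below the BV2 threshold of 0.56.

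N18 and AtT20 could not be placed in a settled order. After quantile normalization no member was called higher in N18, beside 27.8% of all genes and targets, and 8 were called lower, beside 48.6% of all. The largest were Arhgdib, at −1.37 ± 0.15 (SE; adjusted p = 2.66e-07, limma), and Dock2, at −1.23 ± 0.13 (adjusted p = 4.2e-07). Coro1a (−0.14 ± 0.13, adjusted p = 0.347) and Lcp1 (0.27 ± 0.13, adjusted p = 0.0701) were not called. Relative to the seminal proteins, 4 were called higher in N18 (Coro1a, Lcp1, Ptpn6 and Nckap1l) and 2 lower (Was and Inpp5d), and without normalization all 10 were called lower. For all members but Ptpn6 and Nckap1l, N18 or AtT20 or both were below the threshold.

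Values of the comparisons with AtT20 moved with the scaling, for the members and for all genes. The median BV2 minus AtT20 difference of all genes and targets was −0.23 with quantile normalization, 0.28 on the seminal-protein scale and −1.08 on unnormalized values, and the share of calls that were higher in BV2 was 36.2%, 74.2% and 13.5%. For N18 minus AtT20 the medians were −0.25, 0.54 and −0.85 and the shares of calls higher in N18 36.4%, 78.8% and 24%. For BV2 minus N18 they were 0.06, −0.18 and −0.15, with 53.5%, 25.3% and 19.8% of calls higher in BV2. Taken relative to the median of all genes and targets, the median member was higher in BV2 than in AtT20 by 2.78, 3.34 and 3.34 under the same scalings, and higher than in N18 by 3.60, 3.61 and 3.61. The members were called higher in BV2 than in N18 in 10 of 10 cases under each scaling, beside 21.9%, 13.1% and 7.58% of all tested. Against AtT20 10, 10 and 9 were called higher in BV2, beside 26.6%, 50.4% and 11.7% of all tested.

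**Figure D3:**
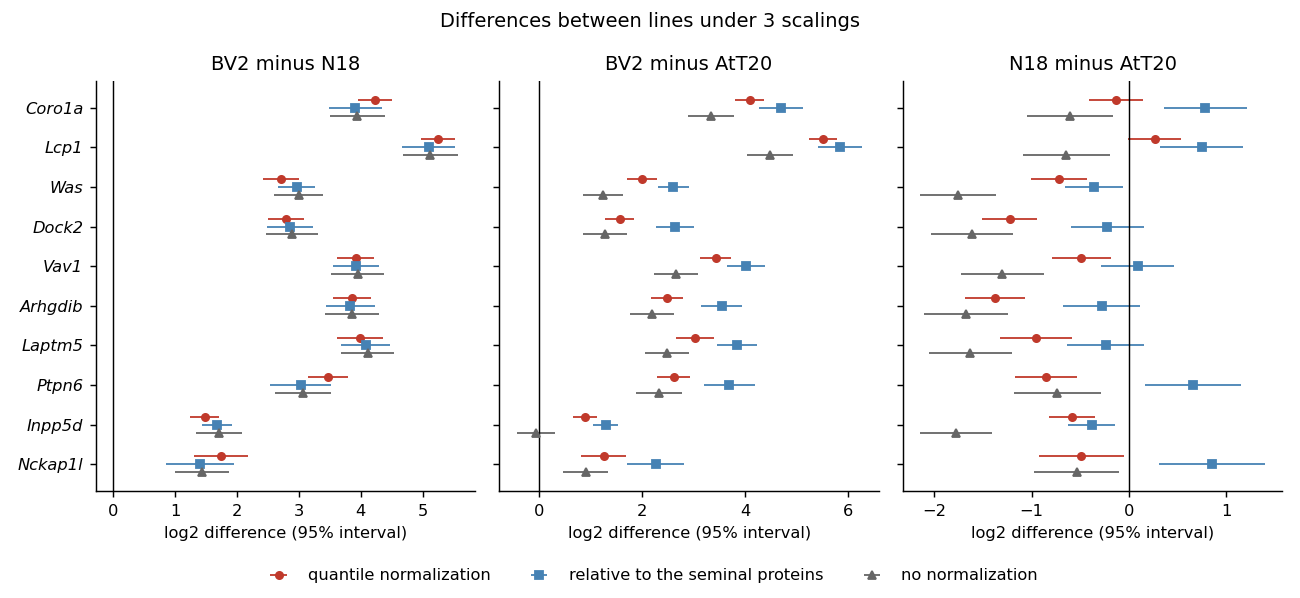
Differences between lines (x axis, log2, with 95% intervals) for the 10 genes under quantile normalization (red circles), on the seminal-protein scale (blue squares) and on unnormalized values (gray triangles). In the BV2 minus N18 panel the scalings lie near each other, though Ptpn6 is at 3.47, 3.04 and 3.07. In the BV2 minus AtT20 panel only unnormalized Inpp5d (−0.07) reaches 0. In the N18 minus AtT20 panel the direction depends on the scaling for several genes, Coro1a (−0.14, 0.79 and −0.61) among them.

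Each of the 10 genes has relatives that are used outside blood cells, and 15 such paralogs were measured. Between BV2 and N18 4 of the 15 were called higher in BV2 and 7 lower, beside 21.9% and 19% of all genes and targets, with a median difference of −0.19. On the seminal-protein scale 3 were called higher and 8 lower (median −0.70), beside 3296 and 9754 of all 25128 genes and targets. On unnormalized values 2 were called higher and 9 lower (median −0.67), beside 1905 and 7714 of all. Against AtT20 5 were called higher and 7 lower, beside 26.6% and 47% of all, with a median of −0.13. That median was 0.29 on the seminal-protein scale and −1.08 on unnormalized values. The 11 paralogs called between BV2 and N18 after quantile normalization had the same sign under all 3 scalings.

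For the WAVE subunit the pattern was reversed. Nckap1, the widely used form of Nckap1l, was at −0.33 ± 0.08 (SD, n = 4) in BV2, below the threshold, at 4.15 ± 0.24 in N18 and at 2.40 ± 0.60 in AtT20. It was called lower in BV2 than in N18 by −3.58 ± 0.11 (SE; adjusted p = 1.71e-13, limma) and than in AtT20 by −3.63 ± 0.11. By level, no plate of BV2 overlapped a plate of the other lines for either gene.

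Wasl, the neural form of WASP, was at 3.17 ± 0.20 (SD) in N18 and at 0.12 ± 0.13 in BV2 and −0.07 ± 0.11 in AtT20, both below the threshold. Laptm4b, a relative of Laptm5 at lysosomes, was at 5.82 ± 0.14 in N18 against 0.79 ± 0.20 in BV2, a difference of −4.47 ± 0.15 (SE; adjusted p = 5.25e-13, limma). Laptm4a was not called between BV2 and N18 (−0.19 ± 0.18). The relatives of Lcp1 were highest in AtT20: Pls3 was at 3.05 ± 0.42 and Pls1 at 2.57 ± 1.01 there, while in BV2 both were below the threshold, at 0.08 ± 0.17 and −0.22 ± 0.05. So the 3 lines differed in which plastin gene had a mean level above the threshold. These were Lcp1 in BV2, Pls1 and Pls3 in AtT20, and none in N18. The Lcp1 mean in N18 was 0.64 against a threshold of 0.74, with 2 of its 3 probes above the threshold.

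Some other relatives were shared between BV2 and N18. Arhgdia, the widely used dissociation inhibitor, was at 5.47 ± 0.34 (SD) in BV2, 5.82 ± 0.14 in N18 and 3.59 ± 0.91 in AtT20, and was not called between BV2 and N18 (0.07, with a 95% interval of −0.16 to 0.30). Ptpn11, which encodes SHP-2, was likewise not called, at −0.05 with an interval of −0.47 to 0.36. Coro1b was called higher in BV2 than in N18 by 1.98 ± 0.19 (SE; adjusted p = 2.9e-07, limma) and Coro1c lower by −0.83 ± 0.11. Both were at levels above 2 in BV2 and in N18. Vav2 (−0.68 ± 0.14), Arhgdig (−0.62 ± 0.14) and the SHIP1 relative Inppl1 (−0.69 ± 0.14) were called lower in BV2. Vav3 (0.67 ± 0.12), Dock1 (0.96 ± 0.11) and Pls3 (0.36 ± 0.13) were called higher. Not all of these were above the threshold: by level, Arhgdig was below it in BV2 (0.115), Dock1 in N18 (−0.38) and Pls3 in both (0.08 and −0.34). In AtT20 Coro1c (0.26), Vav2 (0.14), Vav3 (−0.03) and Dock1 (−0.06) were below the threshold.

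**Figure D4:**
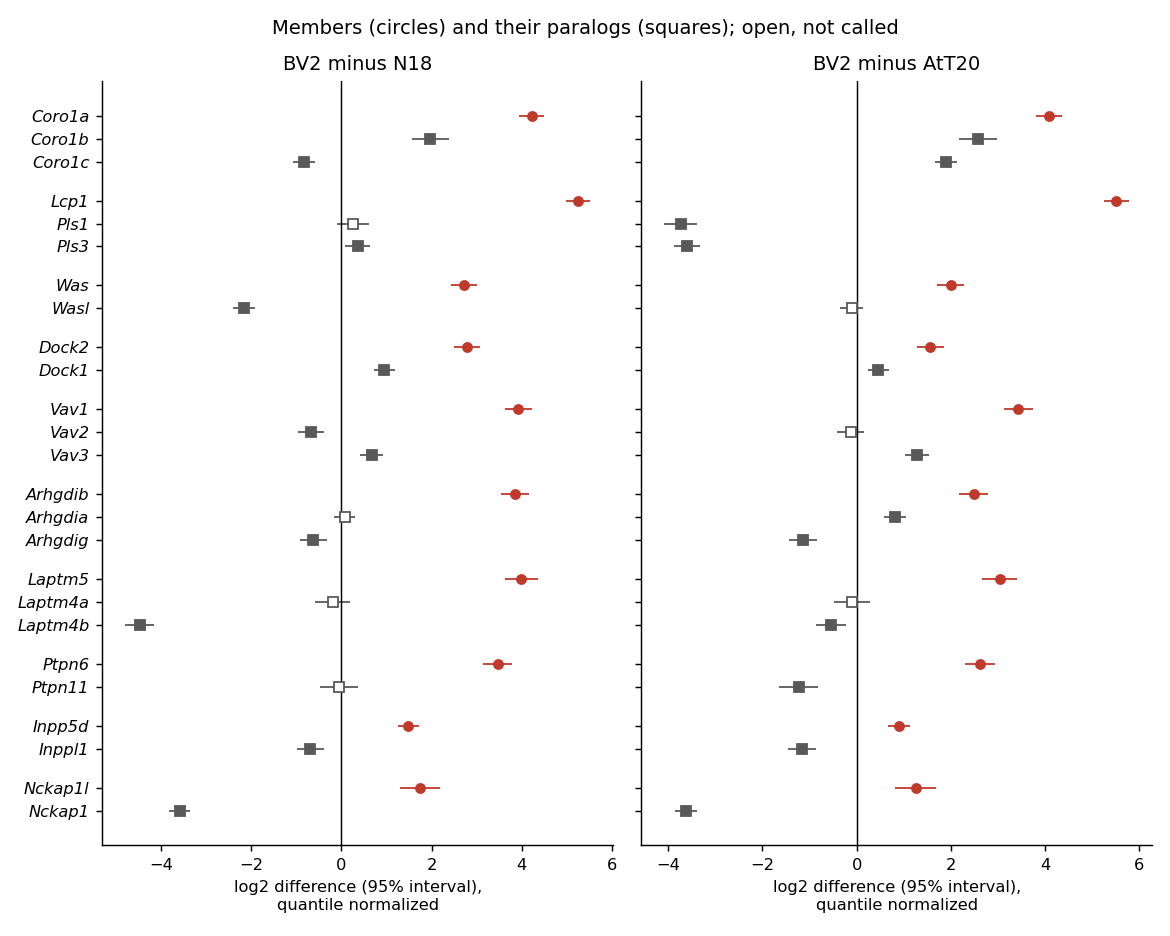
Differences BV2 minus N18 and BV2 minus AtT20 (x axes, quantile normalized log2, with 95% intervals) for the 10 genes (red circles) and their paralogs (gray squares), open where not called. Each member lies to the right of its paralogs in both panels, and Laptm4b (−4.47) and Nckap1 (−3.58) lie furthest to the left in the BV2 minus N18 panel.

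The partners of these proteins were described by lists of related genes, chosen with earlier results of these data known. Of 19 measured genes of the WAVE, WASP and Arp2/3 machinery, 8 were called higher in BV2 than in N18 and 6 lower. Of all genes and targets, 21.9% were called higher and 19% lower. The median of the list was 0.21, which turned to −0.34 on the seminal-protein scale and to −0.31 on unnormalized values. The neuronal WAVE1 gene Wasf1 was lower by −3.08 ± 0.14 (SE), Abi2 by −1.35 ± 0.11 and Cyfip2 by −1.24 ± 0.21, all of them subunits of the WAVE complex. Arpc1b, an Arp2/3 subunit abundant in blood cells, was higher by 1.47 ± 0.14. In N18 18 of the 19 and in BV2 17 were above the threshold, beside 55.4% and 53.3% of all genes and targets. In AtT20 9 were above it, beside 35% of all. Both BV2 and N18 thus held most of this machinery.

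Of 18 other cytoskeletal genes known from blood cells, 14 were called higher in BV2 than in N18 and 2 lower, with a median of 1.55. The shares of all genes and targets were 21.9% and 19%. The adaptor gene Fyb was higher by 4.82 ± 0.11 (SE), the pleckstrin gene Plek by 4.49 ± 0.11, the cortactin relative Hcls1 by 4.15 ± 0.14 and the kindlin gene Fermt3 by 3.77 ± 0.13. The 2 called lower were Evl and Cotl1, at −1.83 and −1.40, named after their values were seen.

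Of 26 partners of SHP-1 and SHIP1 in signaling, 17 were called higher and 3 lower, beside 21.9% and 19% of all. Their median was 1.34. The largest differences were those of the inhibitory receptors Sirpa (4.07 ± 0.11, SE), Lilrb4a (4.03 ± 0.13) and Cd72 (3.63 ± 0.12) and of the PI 3-kinase adaptor Pik3ap1 (3.93 ± 0.13). These receptors can all recruit SHP-1. Of the other inhibitory receptors in the list, named after their values were seen, Fcgr2b (3.02) and Pirb (1.72) were also called higher. Pecam1 (0.03), Cd22 (−0.04), Cd300a (−0.13) and Clec12a (−0.04) were not called. Other protein tyrosine phosphatase genes of blood cells, 13 in all, gave 7 called higher and none lower after quantile normalization, with 6 not called and a median of 0.40, against 21.9% of all genes and targets called higher. On the seminal-protein scale and on unnormalized values 4 were called higher in each, beside 13.1% and 7.58% of all, with medians of 0.06 and 0.09. Ptprc, the CD45 gene, had the largest difference at 3.90 ± 0.11, followed by Ubash3b (1.79 ± 0.13), Ptpn7 (1.31 ± 0.13) and Ptpro (0.98 ± 0.14). No set test was made on these lists.

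**Figure D5:**
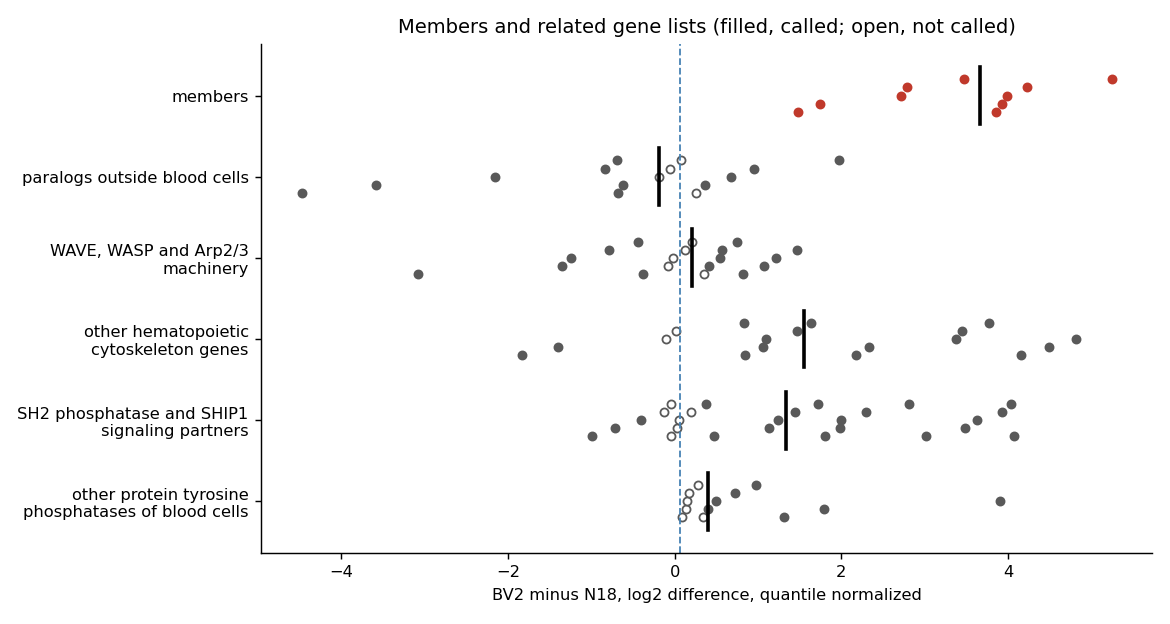
BV2 minus N18 differences (x axis, quantile normalized log2) of each measured gene in the member list (red) and 5 related lists (gray), filled where called and open where not, with black bars at list medians and a dashed line at the median of all genes and targets (0.06). The member genes begin at 1.48, and the list medians run from −0.19 (paralogs) to 3.66 (members).

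The genes whose 12 quantile normalized values followed the mean of the 10 members most closely were Dab2, Slco4a1, Sirpa, Pla2g4a and Lgals3, with Pearson r of 0.998, 0.998, 0.998, 0.997 and 0.997 over the 12 arrays among 12162 genes above the threshold in at least 1 line. The arrays fall into 3 lines, so these values mostly say that the lines are ordered alike. Levels of Dab2, an endocytic adaptor, were 4.44 ± 0.29 (SD, n = 4) in BV2, 0.52 ± 0.05 in N18 and 0.43 ± 0.11 in AtT20.

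The upstream sequence of 9 of the 10 genes was read from RefSeq windows (GRCm38.p6), of which Nckap1l has no entry here. In the 250 bases before the start, GAGGAA or its complement TTCCTC, the core that the myeloid transcription factor PU.1 prefers, was present for 5 of the 9 genes (Dock2, Vav1, Arhgdib, Laptm5 and Inpp5d), beside 23.3% of all 32851 windows. TGTGGT, or ACCACA, a RUNX core, was present for Was alone, beside 14% of all windows, and TATAAA, or TTTATA, for Arhgdib and Laptm5, beside 12.4%. Some genes have several windows, 13 in all, of which 5 held GAGGAA or its complement. The Laptm5 window (chr4:130913066-130913315) and the Arhgdib window with that match (chr6:136939528-136939777) lie inside the gene spans given above. Their starts are therefore internal to those spans. Spi1, which encodes PU.1, was at a level of 4.06 ± 0.29 (SD, n = 4) in BV2 and below the threshold in N18 (0.60 ± 0.08) and AtT20 (−0.17 ± 0.06).

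For Vav1, Dock2 and Inpp5d the match lay 11, 9 and 20 bases before the start. Within the last 50 bases, a stretch chosen after these positions were seen, 4 of the 9 genes had a match. Counted by window this was 4 of 13, beside 5.2% of all windows. Laptm5, with its internal start, is among the 4. The last 120 bases before the start are shown for these 3 genes and for Ptpn6, which has no match, with the match in capitals and each sequence 5′ to 3′ on the gene's strand, at chr17:57278980-57279099 (plus), chr11:34783906-34784025 (minus), chr1:87620192-87620311 (plus) and chr6:124738710-124738829 (minus) in the order printed. A match is a run of letters and not a measured site.
Vav1: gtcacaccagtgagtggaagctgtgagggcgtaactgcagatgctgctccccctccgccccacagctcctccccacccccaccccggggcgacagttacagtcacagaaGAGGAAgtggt
Dock2: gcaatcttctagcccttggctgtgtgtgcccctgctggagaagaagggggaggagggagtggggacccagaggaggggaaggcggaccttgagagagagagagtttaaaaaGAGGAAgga
Inpp5d: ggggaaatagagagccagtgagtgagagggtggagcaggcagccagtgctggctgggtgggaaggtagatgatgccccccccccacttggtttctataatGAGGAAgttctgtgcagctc
Ptpn6: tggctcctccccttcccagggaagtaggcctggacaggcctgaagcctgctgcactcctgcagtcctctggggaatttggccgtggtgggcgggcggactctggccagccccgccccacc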

How the data were processed

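Single-color NimbleGen expression arrays of 72000 probes of 60 bases, with 3 probes per target, were hybridized by the authors with Cy3-labelled cDNA and scanned. The deposited values are log2 intensities per probe. No background correction or normalization was found in the values, and neither is named in the labels. Of 25631 targets 17780 (69.4%) matched a RefSeq gene (GRCm38.p6), which left 25128 genes and unmatched targets. Linear intensities of the probes of a target were averaged and brought back to log2. The threshold follows the rule in the study's methods, with Pate4 and Svs4 read for the older symbols Svs7 and Svp2.

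For differences, probes were quantile normalized over the 12 arrays and fitted with limma 3.58.1 (lmFit, eBayes with a trend) in R 4.3.3, all lines sharing one estimate of the spread. The fit was tested on simulated data. Tables and figures were made with Python 3.11.15, pandas 2.3.3, numpy 2.4.6 and matplotlib 3.10.9. Alternatives covered scaling, background correction, averaging of probes and targets, a minimum difference of 1, the arrays in the fit, a replicate block, leaving out each plate, and the rule for the threshold.

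The text names the 10 members, every listed paralog, the 4 genes of each other list with the largest called BV2 minus N18 difference, and the 5 genes most like the members. The members, lists and tests were chosen with earlier results of these data known. In the lists reported here, Wipf3, Arpc2, Cd68 and Hbb-b1 were not matched on the array, and 1 further list is not reported here. A planned comparison of paralog protein sequences was not run, as no protein table was used here.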

Additional observations from a re-analysis of the deposited data

Results flagged for a closer look

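In 2 of 30 sets of 4 plates (10 genes in 3 lines), 1 plate lay far from the other 3 by Dixon's ratio at its 95% critical value. Chance gives about 1 in 20 such sets. The level of Nckap1l on AtT20 plate 1 was 1.48, with the others between 0.28 and 0.35, and the level of Coro1a on N18 plate 2 was 1.19, with the others between 0.83 and 0.89.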

How the results depend on the processing

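All 10 genes remained called higher in BV2 than in N18 under each of 23 alternatives, with the 230 single differences of the same direction and call, and all 10 remained above the BV2 threshold under each of 12. Against AtT20, 9 or 10 were called throughout: without normalization Inpp5d gave −0.071, and with a minimum difference of 1 its 0.89 was too small. N18 minus AtT20 was the unstable comparison. Without normalization Lcp1 turned to −0.65, relative to the seminal proteins Coro1a turned to 0.79, Vav1 to 0.090, Ptpn6 to 0.66 and Nckap1l to 0.85, and with the median of the probes Coro1a turned to 0.12. The cause was not tested.

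With a minimum difference of 1, fewer genes and targets were called by construction (2471 for BV2 minus N18, 7102 for BV2 minus AtT20 and 7883 for N18 minus AtT20, against 10270, 18495 and 19192), and 2 members between N18 and AtT20. With only the 8 arrays of BV2 and N18 in the fit, 15509 were called, and 15554 with the same 8 in the normalization, an alternative chosen after seeing the data. Members above the AtT20 threshold numbered 0 with olfactory receptors as controls, 2 at 3 SD, 1 with all 4 plates required and 2 with the median of the probes, and olfactory controls left 1 in N18. Leaving out 1 plate at a time kept 10 members called in both BV2 comparisons and gave 7 to 9 between N18 and AtT20. For all genes and targets the counts were 8758 to 11976 (BV2 minus N18), 17534 to 19044 (BV2 minus AtT20) and 18339 to 19670 (N18 minus AtT20). Of the member probes, 29 to 30, 27 to 29 and 13 to 20 were called, an alternative chosen after seeing the data. Members above the threshold then numbered 10 in BV2, 3 in N18 and 3 to 4 in AtT20.

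The replicate numbers do not pair the plates: same-numbered plates of 2 lines deviated together with correlations of −0.11 to 0.32, over 0.1 in 3 of 12 pairs, and 4 of 12 correlated best with their own number. With the replicate number as a block, members called were 10, 10 and 8, and genes and targets called 10108, 18427 and 19127. With signal near background in N18 and AtT20, folds of dim genes are only bounds.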
